A study of Mus musculus with 2 samples.

Results

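The lysosomal cathepsins and lysosome-associated membrane proteins (LAMPs) were followed in mouse primary hepatocytes with and without Drp1. All probes of *Ctsb*, *Ctsc*, *Ctsd*, *Ctsh*, *Ctsk*, *Ctsl*, *Ctss*, *Ctsz*, *Lamp1* and *Lamp2* were taken by the gene name of the array design, leaving out control spots. These 10 genes had 20 probes on 29 spots and were 10 of the 20165 genes that could be compared. The rule used their names only, not their measured values, though the members were chosen with earlier results of these data known.

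Drp1, encoded by *Dnm1l*, is the dynamin-related GTPase that divides mitochondria. Control hepatocytes came from *Drp1*flox/flox littermates, which the sample label calls wild type. *Drp1*LiKO hepatocytes came from *Drp1*flox/flox mice that carried 1 Alb-Cre transgene, in which the albumin promoter drives Cre recombinase in hepatocytes. Both groups were thus floxed mice, and the labels give the strain of both as C57BL/6. No treatment with lipopolysaccharide is named for these cultures, and the age and number of mice behind each array were not given in the sources used here. Cells were isolated by collagenase perfusion, spun down at low speed and seeded on collagen I. The medium was changed at 4 h to remove unattached cells, and RNA was taken 24 h after seeding. Each genotype had 1 array, both on the same slide and scan, so no test across cultures was possible and each ratio describes these 2 arrays only.

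Lysosomes degrade proteins, lipids and sugars that arrive by endocytosis, phagocytosis and autophagy. Cathepsins are their main proteases. Cathepsin D is an aspartic protease, and the other cathepsins among the members are cysteine proteases of the papain family. Cathepsins B, L, S and K cut within proteins, with cathepsin B also trimming from the carboxy end, whereas cathepsins C, H and Z mostly remove residues from an end. LAMP1 and LAMP2 are heavily glycosylated proteins that line the inner face of the lysosomal membrane. In the liver, hepatocytes and the resident macrophages, called Kupffer cells, are both rich in lysosomes. Cathepsin S is known chiefly from antigen-presenting cells, where it processes the invariant chain of MHC class II, and cathepsin K from bone-resorbing osteoclasts.

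Many lysosomal genes carry the E box CACGTG near their start, the core of the site bound by TFEB, TFE3 and MITF. RefSeq promoter windows of GRCm38.p6, 250 bases before to 50 after the start site, were matched for 8 members, all but *Ctsb* and *Ctsh*. Those of *Lamp1*, *Ctsd*, *Ctsl* and *Ctss* are printed 5′ to 3′ because they show how differently the members are equipped. Capitals mark CACGTG, the longer palindrome TCACGTGA that contains it, and, on either strand, 2 copies of GAAA separated by 2 bases and GAGGAAGT. The first pair of motifs reads the same on both strands. The spaced GAAA copies are the core of the interferon-stimulated response element, and GAGGAAGT is a form of the site of the myeloid factor PU.1. This second pair was added after the *Ctss* window had been read.
Lamp1: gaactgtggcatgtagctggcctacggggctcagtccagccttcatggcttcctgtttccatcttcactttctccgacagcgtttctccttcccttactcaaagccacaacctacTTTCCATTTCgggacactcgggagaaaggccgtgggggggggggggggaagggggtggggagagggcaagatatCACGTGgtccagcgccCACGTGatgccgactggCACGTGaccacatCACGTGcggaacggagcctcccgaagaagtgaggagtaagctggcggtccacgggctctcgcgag
Ctsd: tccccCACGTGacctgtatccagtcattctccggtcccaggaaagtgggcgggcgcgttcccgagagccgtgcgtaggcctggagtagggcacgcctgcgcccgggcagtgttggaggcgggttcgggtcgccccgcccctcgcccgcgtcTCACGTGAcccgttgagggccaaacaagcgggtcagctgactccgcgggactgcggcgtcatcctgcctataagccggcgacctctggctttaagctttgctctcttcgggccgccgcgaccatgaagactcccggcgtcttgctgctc
Ctsl: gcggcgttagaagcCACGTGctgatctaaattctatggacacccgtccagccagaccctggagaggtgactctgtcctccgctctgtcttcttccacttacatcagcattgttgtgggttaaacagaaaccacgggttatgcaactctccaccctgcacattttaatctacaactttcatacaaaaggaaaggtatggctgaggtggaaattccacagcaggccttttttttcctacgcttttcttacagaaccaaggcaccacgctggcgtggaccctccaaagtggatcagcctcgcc
Ctss: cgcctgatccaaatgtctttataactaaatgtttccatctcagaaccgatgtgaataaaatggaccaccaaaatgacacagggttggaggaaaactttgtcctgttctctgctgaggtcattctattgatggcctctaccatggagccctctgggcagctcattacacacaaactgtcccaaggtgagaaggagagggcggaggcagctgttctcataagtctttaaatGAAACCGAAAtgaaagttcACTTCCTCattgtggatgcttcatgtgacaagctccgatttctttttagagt
The *Lamp1* window is chr8:13158911-13159210 on the plus strand, *Ctsd* chr7:142387778-142388077 on the minus strand, *Ctsl* chr13:64370471-64370770 on the minus strand and *Ctss* chr3:95526536-95526835 on the plus strand. *Lamp1* held 4 copies of CACGTG, which began 61, 45, 28 and 15 bases before the start site. *Ctsd* held 2 copies, beginning 245 and 98 bases before the start, and the nearer one lay within TCACGTGA. *Ctsl* held 1 copy, 236 bases before the start. None of the 5 other windows (*Ctss*, *Ctsk*, *Ctsc*, *Ctsz* and *Lamp2*) held these letters. CACGTG was found in 7.15% of all 32851 promoter windows and TCACGTGA in 0.974%, against 3 and 1 of the 8 member windows. In the *Ctss* window, GAAACCGAAA began 21 bases and ACTTCCTC 2 bases before the start. The spaced GAAA copies also stood in *Lamp1* and GAGGAAGT in *Ctsc*. They were found in 3.44% and 3.20% of all windows, and in 2 of the 8 member windows each. Since the *Ctss* window prompted the choice of this pair, these member counts cannot be weighed against the share of all windows. A match describes the letters of the window and does not show that a factor binds there.

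The signal of *Ctss* was far higher on the *Drp1*LiKO array, while the bright cathepsin and LAMP probes differed little between the arrays. *Ctss* was 10.2-fold higher after scaling. *Ctsb* followed at 1.41-fold, *Ctsd*, *Ctsl*, *Ctsz*, *Lamp1* and *Lamp2* lay between 1.09-fold and 1.17-fold, and *Ctsc* and *Ctsh* lay just below 1. *Ctsk* read 1.85-fold higher, taken as a bound, since its control signal was not well above background. That bound rests on dim signals and is not a firm lower limit. The median log2 ratio of the 10 members was 0.17, and it was 0.17 without *Ctss*, against -0.05 over all genes.

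These ratios are *Drp1*LiKO minus control on the log2 scale, for the brightest probe of a gene, after each array was scaled to its 75th percentile. The signals in the text are processed intensities before that step. Since the 75th percentile was 313 on the control and 356 on the *Drp1*LiKO array, the scaling removed 0.18 from every log2 ratio. A gene was called where its ratio reached a Z score of 2 among 30275 probes, which corresponds to a log2 ratio of 1.30 upward or -1.31 downward. The spot noise printed beside a ratio is the scatter between spots of the repeatedly printed probes nearest in signal, combined over both arrays. It contains no difference between cultures. Few of the repeatedly printed probes were dim, so for dim probes the nearest ones span a wide range of signal and the noise is only a rough guide. *Dnm1l* itself read 2602 and 1217, a log2 ratio of -1.28 with a Z score of -1.95, and its second probe gave -0.31. Where these probes lie relative to the floxed exons was not given in the sources used here.

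**Figure D1:**
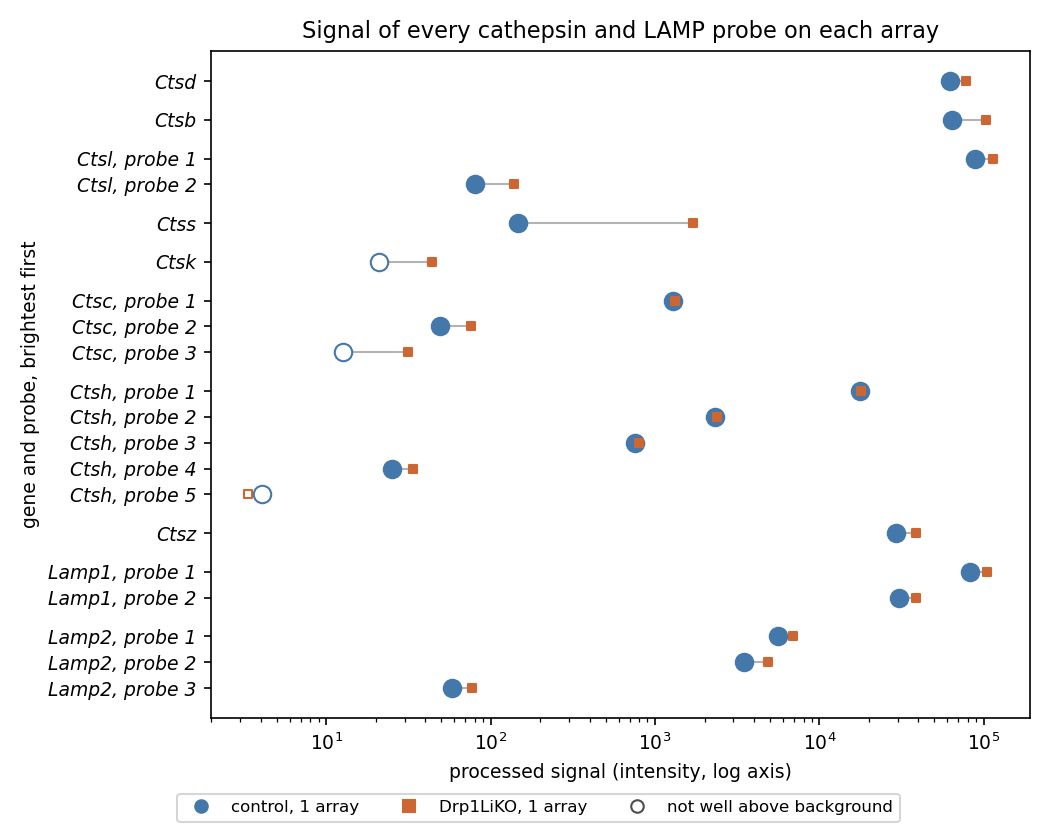
Processed signal (intensity, log axis) of each of the 20 probes of the 10 genes, with 1 circle for the control array and 1 square for the *Drp1*LiKO array. Filled symbols were well above background and open ones were not. The line joining the *Ctss* symbols, from 146.8 to 1697, is the longest, and the symbols of *Ctsh* probes 1 to 3 nearly coincide.

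*Ctsd* encodes the main aspartic protease of the lysosome. Its probe (NM_009983, chr7:149561962-149562021, mm9) read 62634.5 on the control array and 77476.7 on the *Drp1*LiKO array. The log2 ratio was 0.12 with a spot noise of 0.058, and 68.0% of all genes had a lower ratio. *Ctsd* thus lay inside the range from -0.27 to 0.21 that holds the central 50% of all genes.

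Among the cysteine endopeptidases, *Ctsb* and *Ctsl* are the ones that hepatocytes are known to make in quantity. The *Ctsb* probe (NM_007798, chr14:63761826-63761885) read 64334 and 103262. Its log2 ratio of 0.50 was 10.0 times its spot noise of 0.050, and 87.7% of all genes had a lower ratio. *Ctsb* was the most elevated of the bright members, yet its Z score was 0.78.

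The *Ctsl* probe (NM_009984, chr13:64465287-64465346) was printed on 10 spots, so it shows how reproducible a bright signal was within an array. The control spots had a lowest signal of 86480, a median of 87990 and a highest of 90156. The *Drp1*LiKO spots had a lowest signal of 109432, a median of 113716 and a highest of 115574. The spots of the arrays did not overlap. Means were 88092 ± 1210 and 112902 ± 2413 (SD, n = 10 spots each). After scaling, the mean log2 ratio of spots at the same position was 0.18 ± 0.025 (SD, n = 10 spots), from 0.13 to 0.22. Spots share 1 labelled RNA, so this spread says nothing about how cultures differ. The other *Ctsl* probe was designed from the cDNA AK028038 (chr13:64463434-64463493) and was dim, at 80.1 and 138. Its log2 ratio was 0.61 with a spot noise of 0.18.

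**Figure D2:**
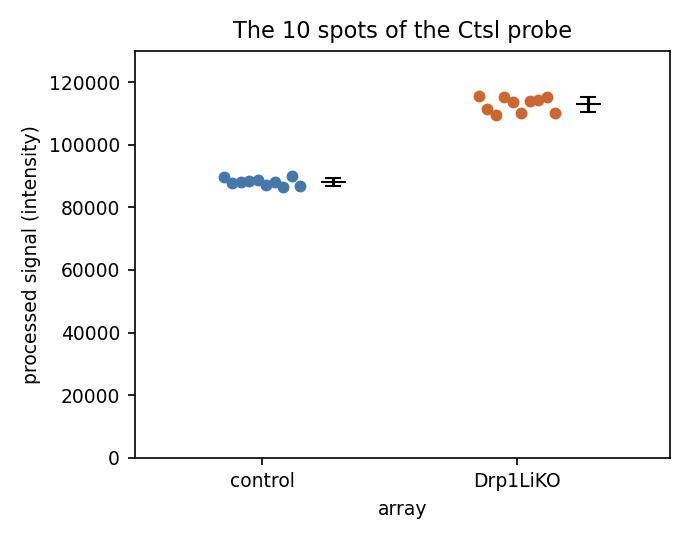
Processed signal (intensity) of the 10 spots of the bright *Ctsl* probe on each array, with the mean and SD beside them. Control spots lie between 86480 and 90156 and *Drp1*LiKO spots between 109432 and 115574, before scaling between arrays.

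*Ctss* was the only member past the Z score of 2, and 3.5% of all genes were called higher by that rule and 2.81% lower. Its probe (NM_021281, chr3:95360162-95360221) read 146.8 on the control array and 1697 on the *Drp1*LiKO array, well above background on both. The log2 ratio was 3.35 with a spot noise of 0.13 and a Z score of 5.15, which ranked 47 among 20165 genes. No member was called lower. At a threshold of 2-fold, *Ctss* was again the only call among the members, where 5.32% of all genes were higher and 4.59% lower.

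Markers of Kupffer cells and macrophages moved with *Ctss*. Of 19 listed names, 17 could be compared. All 17 had a log2 ratio above 0, against 44.5% of all genes, and 14 were called higher, against 3.5%. The markers, like all gene lists here, were chosen with earlier results of these data known. *Adgre1*, *Marco*, *Cd5l*, *C1qa*, *C1qb* and *C1qc* are also in the paper's list of raised immune genes from the same arrays. These counts therefore cannot be weighed against the share of all genes. The median log2 ratio of the 17 was 2.32, and their summed signal was 11584 on the control and 31185 on the *Drp1*LiKO array. *Timd4* was not well above background on either array, *Emr1*, an older name of *Adgre1*, was not on the array, and 4 compared markers were not well above background in the control. The brightest markers differed from each other: *Cd68*, a lysosomal glycoprotein of macrophages, read 2346 and 9593, a log2 ratio of 1.85, whereas *Cd14*, a receptor for lipopolysaccharide that hepatocytes also make, read 6407 and 8419, a log2 ratio of 0.21. Their part in the *Ctss* result was not tested. In such bulk RNA, fewer cells of a type and less RNA per cell cannot be told apart.

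The endothelial and stellate cell marker lists also had medians above the -0.05 of all genes, of which 3.5% were called higher. For 10 endothelial markers compared, the median log2 ratio was 1.21, with 4 called higher and summed signals of 4556 and 9213. Among them, 2 were not well above background in the control, including the called *Lyve1*. For 8 stellate cell markers the median was 1.45, with 4 called higher and summed signals of 521 and 5519. Here 4 markers were not well above background in the control, including the called *Col3a1* and *Pdgfrb*. *Dcn* alone read 203 and 3848. For 14 hepatocyte markers the median was 0.10, with 8 above 0, 6 below 0 and 1 called higher (*Cyp3a11*, log2 ratio 2.03). The lowest was *Cyp2e1*, at -0.78. The summed signals of the hepatocyte markers were 858142 and 916128, which came to 0.94-fold after scaling. *Alb*, the gene of serum albumin, read 219613 and 266703, a log2 ratio of 0.10, so the hepatocyte label was borne out by its defining marker on both arrays. Of the neutrophil list, *Ly6g* had a bound of 1.90 and was called higher, and *Elane* had a log2 ratio of -0.21. The B cell list had 1 gene with no settled direction, the T and NK cell list had *Cd3e* at -0.37, and no gene of the dendritic cell list was detected.

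*Ctsk* lies next to *Ctss* on chromosome 3 in the RefSeq order of genes. Its probe (NM_007802, chr3:95313165-95313224) read 21.1 on the control array, not well above background, and 44.3 on the *Drp1*LiKO array. The log2 ratio of 0.89 was therefore taken as a bound, with a spot noise of 0.36 and a Z score of 1.37. Under another background correction (normexp) the ratio was 0.18, so 0.89 is not a firm lower limit. *Arnt*, the neighbour on the other side of *Ctsk*, read 688 and 675, a log2 ratio of -0.21. The signals of both adjacent cathepsin genes were thus higher on the *Drp1*LiKO array, although *Ctsk* was not called. The signal of *Arnt* was not higher, and *Hormad1*, the other neighbour of *Ctss*, had no value. Log2 ratios of the neighbours of other members ran from -1.45 (*Rab38*, beside *Ctsc*) to 0.90 (*Cdk20*, beside *Ctsl*).

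**Figure D3:**
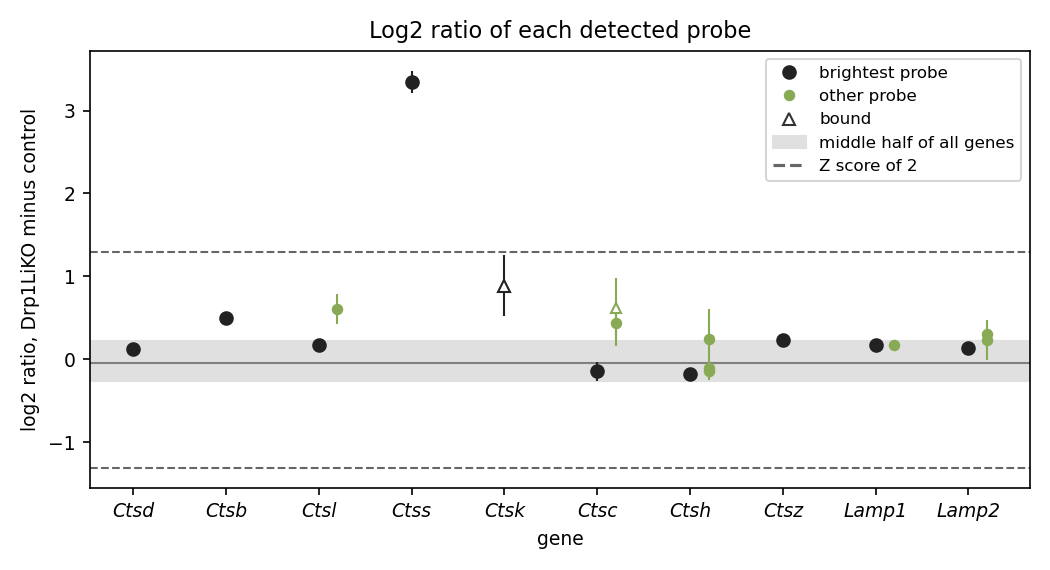
Log2 ratio (*Drp1*LiKO minus control) of the 19 detected probes of the 10 genes. Black symbols are the brightest probe of a gene, green symbols its other probes, open triangles bounds and vertical lines the spot noise. The grey band holds the central 50% of all genes, from -0.27 to 0.21, and the dashed lines mark a Z score of 2. *Ctss* at 3.35 stands alone above the upper line.

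None of the exopeptidases was called. *Ctsc* encodes dipeptidyl peptidase I, which activates serine proteases of immune cell granules. Its brightest probe (NM_009982, chr7:95458436-95458495) read 1295 and 1330, a log2 ratio of -0.14 with a spot noise of 0.11. A pair of dimmer probes, designed from ENSMUST00000131108, pointed the other way. The first (chr7:95439346-95439405) read 49.2 and 75.5, a log2 ratio of 0.44 with a spot noise of 0.28. The second (chr7:95435428-95435487) read 12.7, not well above background, and 31.6, a bound of 0.61 that rests on dim signals. The direction of *Ctsc* depended on the choice of probe and on the normalization. It was above 0 in 2 of 10 alternative treatments of the data, at 0.44 with the median of its probes and, for the same brightest probe, at 0.05 in the deposited normalized values.

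*Ctsh* encodes an aminopeptidase that also trims the precursor of surfactant protein. Its brightest probe (NM_007801, chr9:89970828-89970887) read 17734.5 and 17836.8, a log2 ratio of -0.17 with a spot noise of 0.060. Before scaling these signals differed by only 1.01-fold. A pair of further probes of the same transcript crosses splice junctions, and their letters are shown because each matches along its whole length only where the exons are joined.
Ctsh probe at transcript position 483: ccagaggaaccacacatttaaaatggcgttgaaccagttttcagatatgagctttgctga
Ctsh probe at transcript position 1045: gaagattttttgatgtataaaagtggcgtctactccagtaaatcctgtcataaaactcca
The first spans chr9:89956440-89957591 in mm9, 1152 bases of genome for 60 bases of probe, and the second chr9:89966726-89969727, 3002 bases. The first read 761 and 804, a log2 ratio of -0.10 with a spot noise of 0.13. The second read 2312 and 2374, a log2 ratio of -0.14 with a spot noise of 0.11. All 3 probes of the transcript thus had small ratios below 0. A dim probe of ENSMUST00000186126 read 25.2 and 33.8, a log2 ratio of 0.24 with a spot noise of 0.36. The probe of ENSMUST00000187437 read 4.05 and 3.36 and was not well above background on either array.

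*Ctsz* encodes a carboxypeptidase, also called cathepsin X. Its probe (NM_022325, chr2:174253228-174253287) read 29064.5 and 38713, a log2 ratio of 0.23 with a spot noise of 0.060. A lower ratio was found in 76.2% of all genes, so *Ctsz* lay just outside the central 50%.

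*Lamp1* and *Lamp2* were slightly higher on the *Drp1*LiKO array with each of their probes. *Lamp1* is the usual marker of late endosomes and lysosomes. Its brightest probe (NM_010684, chr8:13175277-13175336) read 82064 and 104624, and the probe next to it (chr8:13175136-13175195) read 30454 and 38873. The log2 ratio was 0.17 with both, against a spot noise of 0.054 and 0.060. *Lamp2* encodes the membrane protein that is needed for fusion with autophagosomes and, as 1 of its splice forms, for chaperone-mediated autophagy. Its brightest probe (NM_010685, chrX:35772774-35772833) read 5587 and 6938, a log2 ratio of 0.13 with a spot noise of 0.070. A probe designed from another transcript, NM_001017959 (chrX:35777505-35777564), read 3492 and 4898, a log2 ratio of 0.31 with a spot noise of 0.082. The letters of that probe are shown because it had the highest ratio among the *Lamp2* probes.
Lamp2 probe: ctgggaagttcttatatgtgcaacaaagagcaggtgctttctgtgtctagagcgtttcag
The dim probe of ENSMUST00000144663 read 58.1 and 77.4, a log2 ratio of 0.23 with a spot noise of 0.24.

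All 9 members measured on both arrays had a log2 ratio larger than their spot noise, in either direction. The share of all genes that do so was not computed, so this count does not set the members apart. Of the 10 members, 8 had a ratio above 0, a direction found in 44.5% of all genes, and 6 lay within the central 50% of all genes. The 2017 genes of highest mean signal included 6 members, *Ctsd*, *Ctsb*, *Ctsl*, *Ctsh*, *Ctsz* and *Lamp1*. Over those genes the median log2 ratio was -0.08 and 34.1% were above 0, as were all of these members but *Ctsh*. For the 4 dim member probes measured on both arrays, with control signals from 25.2 to 80.1, ratios ran from 0.23 to 0.61. The 5413 probes in the same signal range had a median of 0.02 and quartiles of -0.30 and 0.37.

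The other genes of the lysosome were then described from 9 lists with 105 genes, of which 96 could be compared. The log2 ratio was above 0 in 64 (66.7%) and below 0 in 30, with a median of 0.23, and 2 bounds gave no direction. By a Z score of 2, 3 genes were called higher, 3.125% of those compared and close to the 3.5% of all genes, and 0 lower.

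Beside the members, 7 other cathepsin and legumain genes were on the array, and 5 could be compared, with a median log2 ratio of -0.56. The highest was *Ctsa*, a carboxypeptidase that also protects lysosomal galactosidase, at 22523 and 38550, a log2 ratio of 0.59, though its second probe gave -1.10. *Lgmn*, the asparaginyl endopeptidase that processes cathepsins, had a log2 ratio of 0.29. The lowest measured was *Ctsw*, a cathepsin of cytotoxic lymphocytes, at 95.1 and 66.8, a log2 ratio of -0.69. *Ctsf* was at -0.56, *Ctso* had a bound of -0.95, and *Ctse* and *Ctsg* were not well above background. None of them was called as reported, and *Ctso* was called lower under 3 of 13 alternatives.

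The cystatins and stefins, which inhibit the cysteine cathepsins, had a median log2 ratio of 0.41 over 4 genes. *BC100530*, a stefin, was called higher at 21.4 and 78.6, a log2 ratio of 1.70, and the call was lost under 3 of 13 alternatives (normexp, no floor and a Z score taken within bins of signal). Its family members have similar sequences, and the *Stfa1*, *Stfa2* and *Stfa3* probes were not well above background. *Cst3*, the secreted cystatin C, was the lowest, at 17854 and 18429, a log2 ratio of -0.14.

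The vacuolar ATPase pumps the protons that acidify the lysosome and so sets the pH at which cathepsins work. Of 17 subunit genes compared, 15 had a log2 ratio above 0 (88.2%, against 44.5% of all genes), with a median of 0.42. By their brightest probes the subunits ran from *Atp6v0a2*, at 5101 and 5337 with a log2 ratio of -0.12, to *Atp6v1b2*, at 3096 and 6805 with a log2 ratio of 0.95. *Atp6v1a* had a log2 ratio of 0.61 with its brightest probe, but its other detected probe gave -3.61. No subunit was called as reported, but *Atp6v1b2* and *Atp6v1h* were each called higher under 5 of 13 alternatives.

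Glycosidases and sulfatases were spread around a median log2 ratio of 0.12 over 20 genes, with 11 above 0, from *Gusb* at -0.51 to *Hexa* at 0.81. Lipid hydrolases and lipid transfer proteins had a median of 0.25 over 10 genes, with 8 above 0, from *Pla2g15* at -0.14 to *Npc1*, the cholesterol exporter, at 0.68. Other hydrolases had a median of 0.30 over 8 genes, with 6 above 0, from *Rnaset2b* at -0.35 to *Scpep1* at 0.83. Sorting genes had a median of 0.17 over 10 genes, with 7 above 0, from *Sort1* at -0.98 to *Gga2* at 0.77. None of these genes was called as reported, and *Hexa* and *Scpep1* were each called higher under 3 of 13 alternatives.

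Lysosomal membrane proteins other than LAMP1 and LAMP2 had a median log2 ratio of 0.23 over 18 genes, with 12 above 0 and 2 called higher. They included further LAMP genes. *Lamp3* read 10591 and 11533, a log2 ratio of -0.06, and *Lamp5* read 26.7 and 31.3, a log2 ratio of 0.04. *Laptm5*, a lysosomal protein of blood cells, read 13.5, not well above background, and 156, a bound of 2.91. *Gpnmb*, a glycoprotein of macrophages and pigment cells, read 455 and 1891, a log2 ratio of 1.87. The lowest was *Slc17a5*, the sialic acid exporter, at -0.34. The macrophage marker values given beside *Ctss* stand beside these calls too, and their part was not tested.

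Of the transcription factors that bind the E box, *Tfeb*, *Tfe3* and *Mitf* had log2 ratios of -0.17, -0.13 and -0.19 by brightest probe. The other *Tfe3* probe gave -1.34, past the threshold for a lower call, but the reported calls used the brightest probe. The *Tfeb* probes ran from -0.60 to -0.003 and the *Mitf* probes from -0.46 to -0.19. *Tfec* read 3.63, not well above background, and 19.6, which gave no direction, and it was called higher under 1 of 13 alternatives, the one without a floor for dim signals. Of 98 promoter windows matched for the lysosome lists, 23 (23.5%) held CACGTG and 12 (12.2%) held TCACGTGA, against 7.15% and 0.974% of all windows. The spaced GAAA copies stood in 4 of them (4.08%) and GAGGAAGT in 2 (2.04%), against 3.44% and 3.20% of all windows.

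**Figure D4:**
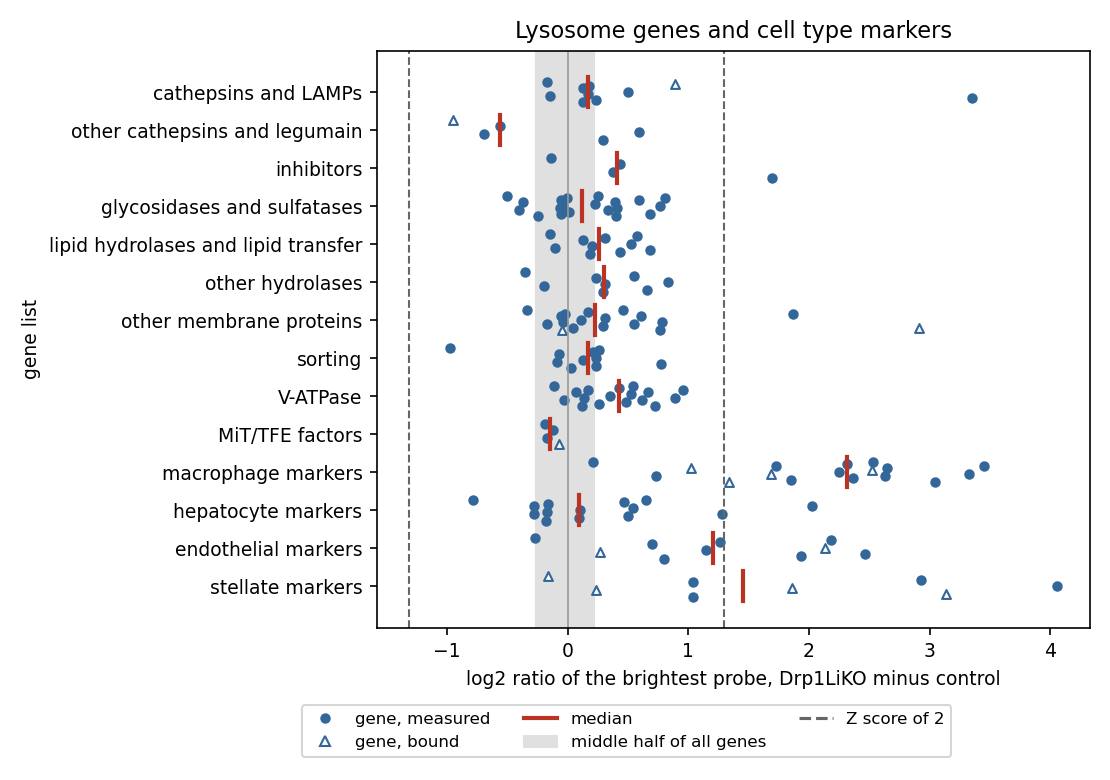
Log2 ratio (*Drp1*LiKO minus control) of the brightest probe of each gene, by list. Circles are measured genes, triangles bounds, red bars list medians, the grey band the central 50% of all genes and dashed lines a Z score of 2. The member median is 0.17, that of the vacuolar ATPase 0.42 and that of the macrophage markers 2.32.

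The member ratios were recomputed under 10 other treatments of the signals. *Ctss* stayed past the threshold in all 10, with log2 ratios from 2.89 to 3.39. *Ctsd*, *Ctsb*, *Ctsl*, *Ctsz*, *Lamp1* and *Lamp2* were above 0 in all 10, and *Ctsh* was below 0 in all 10. The highest value for *Ctsb* was 0.74 and for *Ctsd* 0.37, both from the deposited normalized values. *Ctsk* ran from 0.18 to 0.98 over the 9 treatments that gave it a value.

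**Figure D5:**
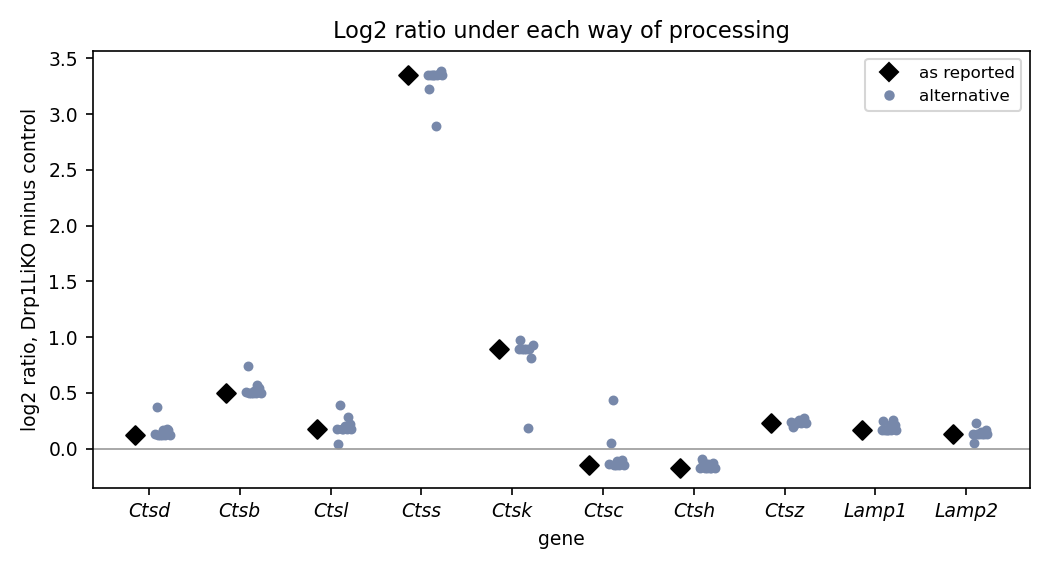
Log2 ratio (*Drp1*LiKO minus control) of each member as reported (diamonds) and under each alternative treatment of the data (dots). *Ctss* stays between 2.89 and 3.39, the *Ctsc* dots at 0.05 and 0.44 lie on the other side of 0 from the diamond, and *Ctsk* drops to 0.18 under another background correction.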

How the data were processed

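Labelled RNA of primary hepatocytes was hybridized to 1-color Agilent mouse arrays with 60-mer probes, 1 for each genotype. Agilent Feature Extraction output was deposited by the authors, giving the intensity of every spot before and after background correction. The methods name version 9.5.1.1 and the file headers 10.7.1.1. A further deposited table holds intensities after normalization, whose method is not named in the sources used here. Its order of probes matched the control array (Spearman correlation across probes 0.999999) better than the *Drp1*LiKO array (0.958), so it was kept for an alternative.

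From the processed signals, control spots and outlier spots were left out (71 and 63 outlier spots, 0 of them in members), repeated spots were averaged to 1 log2 signal per probe, and each array was scaled to its 75th percentile. Of 56605 probes, 48.2% were well above background on the control and 52.1% on the *Drp1*LiKO array. The 30275 probes that passed on either array were kept. Where a signal did not pass, the ratio is a bound, taken with that signal or the lowest passing signal of its array (18.2 and 15.0), whichever was higher. Such bounds depend on the background correction and are not firm limits. No spot was saturated. A gene was its brightest probe. These probes were the population of the Z score, as the methods give its threshold of 2 but name no population. Spot noise was the median over the 20 probes nearest in signal among 300 printed 10 times. With so few arrays the precision is limited by their number, and no p-value was computed.

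Members and gene lists were chosen with earlier results of these data known. The genes named were all members, *Dnm1l*, the genes past the threshold and the highest and lowest measured ratio of each lysosome list, and the brightest markers. *Ctsf*, *Ctso*, *Lgmn*, *Arnt*, *Rab38*, *Cdk20*, *Lamp3* and *Lamp5* were named after their values were seen. So were the factors that bind the E box, markers beyond the brightest, and genes called only under an alternative. Gene names follow the array design. Probe coordinates are in mm9, per the file headers, and promoters are those of RefSeq for GRCm38.p6. Identity between the proteins was not analysed here. The script was tested on simulated data. Python 3.11.15, numpy 2.4.6, pandas 2.3.3, matplotlib 3.10.9, R 4.3.3 and limma 3.58.1 were used.

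The alternatives, 13 in all, were quantile normalization, scaling to 7 spike-in probes, the 75th percentile over probes well above background on both arrays, normexp background correction with an offset of 50, the deposited normalized values, no floor for dim signals, 2 other filters on dim probes, retention of outlier spots, the median over the probes of each gene, calls at 2-fold, a robust Z score and a Z score in 20 bins of similar signal.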

Additional observations from a re-analysis of the deposited data

How the results depend on the processing

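*Ctss* was called higher under all 13 alternatives. A second member joined it under 3 of them, which gave 2 members: *Ctsb* with a Z score taken within bins of signal, and *Ctsk* with a robust Z score and with no filter on dim probes. The member median was 0.31 with the median of a gene's probes and 0.26 with quantile normalization, against 0.17. Of the other lysosome genes, 3 called higher became 5 with the deposited values, 5 with no filter, 6 with normexp, 8 with the Z score among similar signals and 12 with the robust Z score. Of the 3 reported calls, *Gpnmb* was kept under all 13, *Laptm5* under 12 (it has no value where both arrays must pass) and *BC100530* under 10, lost with normexp, no floor and similar signals. The genes added most often were *Atp6v1b2* and *Atp6v1h*, under 5 alternatives each, and *Hexa* and *Scpep1*, under 3 each. *Atp6v1g1*, *Tcirg1*, *Clcn7*, *Ctns*, *Ctsa*, *Gga2*, *Neu1* and *Tfec* were added under 1 each. None called lower became 1 with similar signals (*Ctso*), 1 with no floor (*Ctso*), 1 with the median of probes (*Atp6v1a*) and 2 with the robust Z score (*Ctso* and *Sort1*). Their median was 0.17 with the deposited values. The macrophage marker median was 2.12 with the deposited values, 2.53 with no floor and 1.64 with normexp.

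Over all genes, 705 were called higher and 566 lower, so 55.5% of the calls were higher. Without a filter on dim probes 1355 and 597 were called (69.4% higher) and the median log2 ratio of all genes moved from -0.05 to -0.47. The robust Z score called 1722 and 1443 (54.4% higher), and the Z score among similar signals 639 and 730 (46.7% higher). The cause of these differences was not tested. Requiring a signal well above background on both arrays leaves *Ctsk* without a value. No paired analysis was possible because there was 1 array per genotype, and for the same reason no replicate could be left out. Dim probes limit *Ctsk* and the lesser probes of *Ctsc*, *Ctsh* and *Lamp2*, whose spot noise was up to 0.36.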
